A study of Mus musculus with 12 samples.

Results

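Collagens are the triple-helical proteins that give the extracellular matrix its strength. The collagen genes described here were all rows of the deposited count table whose mouse symbol reads Col, a number, the letter a and a number, which gave 44 of 55359 genes. By the structures their chains form, 11 were fibrillar, 9 belonged to basement membranes or lie next to them, and 24 were of other types. In 12 livers, 32 of the 44 held enough reads to be tested (9 fibrillar, 9 basement membrane and 14 other).

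The livers came from 12 male C57BL/6NTac mice, 4 in each of 3 groups, and gene counts were made from stranded mRNA libraries. The lean group had normal chow and Control-mRNA, and the group called HFD control had high-fat diet and Control-mRNA. The group called NM-FGF19 had high-fat diet and mRNA encoding NM-FGF19, a non-mitogenic relative of the intestinal hormone FGF19, which signals to hepatocytes through FGFR4 and beta-klotho. Every mouse thus received mRNA in lipid nanoparticles, as 6 weekly injections, with livers collected 24 hours after the final one. The labels conflict on time: they state 28 weeks of feeding but also 21 weeks on diet at the first injection, and mice 24 weeks old. In the count table HFD control libraries carry the name of mouse OX40L, unlike lean ones, so a difference between control mRNAs cannot be told apart from the diet. C57BL/6NTac is an inbred strain, and the labels name no transgene.

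Fibrillar collagens (types I, III and V among them) build the banded fibres that accumulate in liver scar, where hepatic stellate cells and portal fibroblasts are their best known source. Basement membrane collagens form sheets, with type IV as the network itself and types XV and XVIII attached to it. Type VI makes beaded microfilaments around cells, and the fibril-associated types, such as XIV and XVI, coat the surface of fibres.

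Libraries held 23743415 to 33257260 counted reads, and 3 reads corresponded to 0.0792 to 0.153 CPM (counts per 1e+06 reads of a library total scaled by TMM factors). Lean 3 stood apart: its log2 CPM over all tested genes correlated at 0.950 to 0.956 with the other lean libraries, which correlated at 0.968 to 0.976 with each other, and its TMM factor of 0.779 was the lowest. The lowest correlation within the HFD control group, 0.946, was between HFD control 2 and HFD control 3. HFD control 3 held the highest value of its group for 17 of the 32 tested members, and the counts of called members and the changes of the 9 members called higher with the diet are also given without lean 3 and HFD control 3. Scaled by library totals alone, the median log2 change of all genes moved from −0.02 to 0.29 for HFD control against lean, from −0.00046 to −0.13 for NM-FGF19 against HFD control and from −0.01 to 0.17 for NM-FGF19 against lean. Cyp7a1, the FGF19-repressed gene of bile acid synthesis, read 5.15, 20.2, 3.28 and 5.705 CPM in the NM-FGF19 livers, below the lowest HFD control value of 73.6 (adjusted p = 0.0672 by edgeR) and the lowest lean value of 33.9 (adjusted p = 0.0489, up to 0.133 without 1 library and then called in 2 of 8 fits). Levels below are CPM in replicates 1 to 4 in that order, changes are log2 fold changes ± SE from one edgeR quasi-likelihood fit over 12 libraries, and a gene was called at a Benjamini-Hochberg adjusted p under 0.05 over 15274 genes. The labels do not say how mice were housed or paired, so p-values measure the spread between these mice.

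The 12 members too low to test were Col10a1 with 13 counts over all libraries, Col17a1 with 36, Col19a1 with 1, Col22a1 with 28, Col28a1 with 12, Col6a4 with 2, Col8a2 with 78, Col9a1 with 2 and Col9a2 with 16, and Col2a1, Col11a1 and Col26a1 with 0. Col2a1 and Col11a1 are the fibrillar collagens best known from cartilage. For the 3 genes at 0, up to 3 counts per library remain possible, which is at most 0.153 CPM.

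Per kilobase of exon, Col18a1 was the most abundant collagen mRNA in every group. It encodes type XVIII, the parent of endostatin, which hepatocytes are known to make. Its level was 190.3 ± 15.2, 142 ± 35.8 and 190.4 ± 24.8 CPM per kb (mean ± SD, n = 4 each) in the lean, then HFD control, then NM-FGF19 group. Next in lean livers came Col4a1 at 11.4 ± 6.49, Col4a2 at 9.05 ± 2.61, Col5a3 at 8.72 ± 0.783 and Col14a1 at 6.49 ± 0.773 CPM per kb. Col4a1, Col4a2 and Col5a3 overlapped within 1 SD, and Col14a1 lay more than 1 SD below Col5a3. In HFD control livers the order below Col18a1 was Col3a1 at 21.7 ± 10.6, Col4a1 at 17.4 ± 3.87 and Col1a1 at 16.4 ± 11.9 CPM per kb, again with overlapping spreads. Col1a1 and Col3a1 had stood at 1.35 ± 0.469 and 2.05 ± 0.496 CPM per kb in lean livers.

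The first comparison was HFD control against lean, in which the diet cannot be told apart from a difference between control mRNAs. Changes described as coming with the diet are changes in this comparison. Genes for the classical fibrils rose: both type I chains, type III and the type V chains Col5a1 and Col5a2 were higher in HFD control livers, 3.64- to 12.2-fold. The main type VI chains Col6a1, Col6a2 and Col6a3 rose 3.79- to 5.73-fold and Col16a1 2.396-fold. Col11a2, Col6a6 and Col20a1, all at low levels, fell. Of 32 tested members 9 were called higher, where 5.04% of all 15274 genes were, and 3 were called lower, where 3.29% of all genes were. The other 20 were not called. By type, 5 of 9 fibrillar genes rose and 1 fell, 0 of 9 basement membrane genes passed, and 4 of 14 others rose and 2 fell. In bulk liver RNA, more cells of a type cannot be told apart from more RNA per cell. The median log2 change was 1.86 for fibrillar, −0.25 for basement membrane and −0.11 for other members, beside −0.02 for all genes.

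Col1a1 and Col1a2 encode the chains of type I collagen, the main protein of scar fibres. Col1a1 read 4.25, 10.03, 10.5 and 10.6 CPM in lean livers and 96.99, 63.4, 221 and 49.03 in HFD control livers. The lowest HFD control value lay more than 4-fold above the highest lean one, and HFD control 3 was the highest. The log2 change was 3.61 ± 0.73 (95% interval 2.00 to 5.21, adjusted p = 0.0162 by edgeR, higher in 4 of 4 livers than in any lean one). Col1a2 read 9.795, 12.5, 15.6 and 12.1 CPM in lean and 68.9, 52.6, 171 and 39.6 in HFD control livers, without overlap. Its log2 change was 2.74 ± 0.63 (adjusted p = 0.0244).

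Col3a1, for the type III chain that mixes with type I in fibres, read 13.01, 23.3, 21.01 and 23.3 CPM in lean and 194, 169, 363 and 126 in HFD control livers. All 4 HFD control values lay over 100 CPM and all 4 lean values under 24 CPM. The log2 change was 3.40 ± 0.57 (95% interval 2.15 to 4.66, adjusted p = 0.00848), the lowest adjusted p among the members. Type V collagen is a minor part of fibres that sets where they start and how thick they grow. Col5a1 read 5.86, 8.92, 8.16 and 9.92 CPM in lean and 29.5, 27.6, 41.2 and 21.1 in HFD control livers (1.86 ± 0.38, adjusted p = 0.0148). Col5a2 read 1.78, 3.995, 2.24 and 4.11 against 14.5, 16.5, 21.8 and 11.2 CPM (2.40 ± 0.46, adjusted p = 0.0118). Neither gene's groups overlapped. The third type V chain, Col5a3, was more abundant than both in lean livers per kilobase and was not called, at 54.3 to 65.3 CPM in lean and 43.8 to 54.8 in HFD control livers (−0.29 ± 0.21, adjusted p = 0.427).

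Promoter windows are shown for 3 of the 5 fibrillar members that rose (not for Col1a1 and Col5a2), because those genes moved together. Each runs from 250 bases before to 50 bases after the gene's start in RefSeq (GRCm38.p6, an older build than the mm39 of the counts), 5′ to 3′ on the gene's strand. Capitals mark the CCAAT box, the TATA box in the form TATAAA and the GC box in the form GGGCGG, each searched on both strands. The windows are Col1a2 at chr6:4505368-4505667 (plus strand), Col3a1 at chr1:45311288-45311587 (plus strand) and Col5a1 at chr2:27886175-27886474 (plus strand).
Col1a2: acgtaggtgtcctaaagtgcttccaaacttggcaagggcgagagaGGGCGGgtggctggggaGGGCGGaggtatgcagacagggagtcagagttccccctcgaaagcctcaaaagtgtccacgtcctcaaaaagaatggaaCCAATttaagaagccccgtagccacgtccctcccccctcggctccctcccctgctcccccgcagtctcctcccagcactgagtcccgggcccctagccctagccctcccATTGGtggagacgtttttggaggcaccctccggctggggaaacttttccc
Col3a1: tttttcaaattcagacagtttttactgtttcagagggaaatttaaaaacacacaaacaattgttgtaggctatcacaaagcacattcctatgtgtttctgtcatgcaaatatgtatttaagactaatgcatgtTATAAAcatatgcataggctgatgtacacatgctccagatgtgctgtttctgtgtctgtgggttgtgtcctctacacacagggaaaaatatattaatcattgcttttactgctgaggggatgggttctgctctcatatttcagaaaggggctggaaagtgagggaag
Col5a1: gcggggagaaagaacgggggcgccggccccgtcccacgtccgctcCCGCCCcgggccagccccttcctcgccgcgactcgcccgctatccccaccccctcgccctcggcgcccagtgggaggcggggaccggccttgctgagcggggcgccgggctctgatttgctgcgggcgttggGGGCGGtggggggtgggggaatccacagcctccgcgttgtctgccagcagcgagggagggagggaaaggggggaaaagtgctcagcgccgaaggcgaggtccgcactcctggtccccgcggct
The Col1a2 window held CCAAT on both strands and GGGCGG at 2 places, the Col5a1 window held GGGCGG at 2 places, and the Col3a1 window held TATAAA alone. No 2 of these motifs overlapped in the printed windows. Windows were found for 35 of the 44 members, some with more than 1 start, which gave 38. CCAAT was in 13 of the 38 (34.2%, against 37.4% of 32851 windows of all genes), TATAAA in 5 (13.2% against 13.6%) and GGGCGG in 23 (60.5% against 35.7%). These are counts of letters, not binding sites.

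Col11a2, for a chain of the cartilage-type fibril collagen XI, went the other way. It read 1.58, 1.58, 2.29 and 2.36 CPM in lean and 1.003, 1.04, 0.694 and 0.796 in HFD control livers, without overlap (−1.14 ± 0.30, adjusted p = 0.0357). Col24a1 and Col27a1, for fibrillar types XXIV and XXVII, were not called, at 0.98 ± 0.64 and −0.18 ± 0.20. Col13a1, a transmembrane collagen gene of the other types, read 6.68 to 10.05 CPM in lean and 2.62 to 8.87 in HFD control livers (−0.68 ± 0.31, adjusted p = 0.197).

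**Figure D1:**
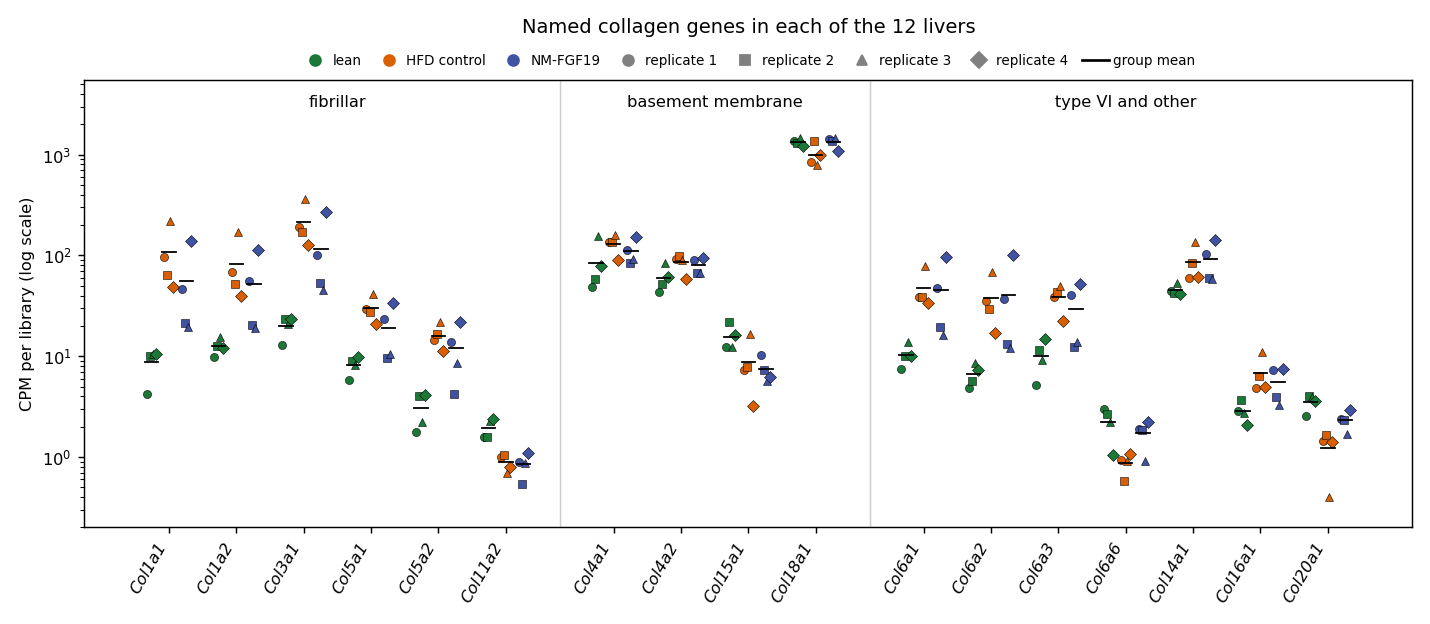
CPM (log axis) of 17 named collagen genes in each of the 12 livers. Each symbol is 1 library, with colour for the group and shape for the replicate number, and the short line is the group mean. For Col1a1, Col1a2, Col3a1, Col5a1 and Col5a2 the HFD control symbols lie above all lean symbols and the NM-FGF19 symbols run from near the lean symbols into the HFD control range. Replicate 3 is the highest HFD control symbol and replicate 4 the highest NM-FGF19 symbol for these 5 genes and for Col6a1, Col6a2 and Col6a3.

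Type VI collagen is assembled from Col6a1 and Col6a2 with Col6a3 or one of its relatives. Col6a1 read 7.501, 10.03, 13.8 and 10.1 CPM in lean and 38.6, 39.1, 78.1 and 33.9 in HFD control livers (2.20 ± 0.53, adjusted p = 0.0278). Col6a2 read 4.79, 5.71, 8.57 and 7.34 against 35.6, 29.3, 69.1 and 17.1 CPM (2.52 ± 0.68, adjusted p = 0.0452). Col6a3 read 5.14, 11.5, 9.13 and 14.8 against 38.6, 43.1, 49.7 and 22.2 CPM (1.92 ± 0.49, adjusted p = 0.035). No HFD control value of these 3 genes fell within the lean range, and HFD control 3 was the highest in each. Among the chains that can replace Col6a3, Col6a6 fell, at 3.01, 2.65, 2.24 and 1.05 CPM in lean and 0.924, 0.580, 0.908 and 1.08 in HFD control livers, with lean 4 inside the HFD control range (−1.36 ± 0.37, adjusted p = 0.0418). Col6a5 was not called (0.14 ± 0.69, adjusted p = 0.925), and Col6a4 had too few reads.

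Col16a1 and Col14a1 encode fibril-associated collagens. Col16a1 read 2.88, 3.72, 2.75 and 2.098 CPM in lean and 4.89, 6.41, 11.1 and 5.003 in HFD control livers, without overlap (1.26 ± 0.34, adjusted p = 0.0365). Col14a1 read 44.7, 42.2, 53.4 and 41.7 against 59.8, 84.7, 137 and 60.8 CPM. Its groups did not overlap either, but it was not called (0.91 ± 0.32, adjusted p = 0.0977). Col20a1, of the same structural class, fell from 2.53, 3.995, 3.93 and 3.63 to 1.43, 1.65, 0.400 and 1.42 CPM (−1.52 ± 0.36, adjusted p = 0.0236). Its lowest value was in HFD control 3, the library in which Col16a1 and Col14a1 were highest.

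Genes of the basement membrane type did not pass in this comparison by edgeR, and 0 of 9 were called by DESeq2 or limma voom. At an unadjusted p under 0.05 by edgeR, 1 was higher and 1 lower, where 1989 and 1763 of all 15274 genes were. Col4a1 and Col4a2 encode the standard type IV network. Col4a1 read 48.8, 58.3, 155 and 77.8 CPM in lean livers, with lean 3 far above the rest, and 134, 135, 160.3 and 90.8 in HFD control livers. The log2 change was 0.61 ± 0.33 (95% interval −0.11 to 1.33, adjusted p = 0.284), and 0.61 became 1.10 without lean 3, when the gene was called (adjusted p = 0.0249). Col4a2 read 43.1, 52.4, 83.5 and 60.8 against 92.3, 99.2, 90.5 and 58.8 CPM, a change of 0.51 ± 0.22 (adjusted p = 0.163). Scaled by library totals alone, both were called, at 0.99 and 0.85.

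These 2 genes sit head to head on mouse chromosome 8, and their windows are shown because they share bases. Col4a1 is read from the minus strand (chr8:11312777-11313076) and Col4a2 from the plus strand (chr8:11312555-11312854), with starts 21 bases apart in GRCm38.p6 and 78 bases common to both windows. Capitals are as above.
Col4a1: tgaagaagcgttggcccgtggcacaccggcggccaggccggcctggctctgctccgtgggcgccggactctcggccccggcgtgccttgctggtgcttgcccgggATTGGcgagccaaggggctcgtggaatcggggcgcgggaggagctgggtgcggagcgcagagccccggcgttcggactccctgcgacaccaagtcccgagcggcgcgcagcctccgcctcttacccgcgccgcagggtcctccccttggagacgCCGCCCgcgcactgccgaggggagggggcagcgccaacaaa
Col4a2: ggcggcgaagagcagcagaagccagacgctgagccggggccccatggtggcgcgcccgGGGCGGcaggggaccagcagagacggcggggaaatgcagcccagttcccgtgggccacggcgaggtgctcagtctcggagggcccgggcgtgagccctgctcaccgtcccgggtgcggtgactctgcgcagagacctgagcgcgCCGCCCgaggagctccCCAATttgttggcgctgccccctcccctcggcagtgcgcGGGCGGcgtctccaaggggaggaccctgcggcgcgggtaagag
Each window held CCAAT and GGGCGG on 1 or the other strand and neither held TATAAA. The end of the Col4a2 window is the reverse complement of the end of the Col4a1 window, so the GGGCGG just past the Col4a2 start and the one just past the Col4a1 start are 1 site.

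Col18a1 read 1353, 1309, 1469 and 1212 CPM in lean and 854, 1354, 792 and 989.7 in HFD control livers. Of the HFD control values, 3 lay below all lean values and HFD control 2 within them (−0.42 ± 0.18, adjusted p = 0.17). Without HFD control 2 it was at −0.60 and was called lower (adjusted p = 0.0372). Col15a1, for the related type XV, read 12.4, 21.6, 12.3 and 16.1 against 7.29, 7.74, 16.6 and 3.24 CPM (−0.84 ± 0.39, adjusted p = 0.211). HFD control 3 alone held a value inside the lean range, and without it the change was −1.36 and called (adjusted p = 0.0411). The chains of the specialised type IV networks, Col4a3 to Col4a6, and the anchoring fibril gene Col7a1 read at most 2.77 CPM in any liver and were not called, with log2 changes of −1.36 to 0.95.

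The groups did not overlap for 11 of 32 members in the higher direction (8.4% of all genes) and for 2 in the lower direction (6.89% of all genes). The 11 were the 9 called genes, Col14a1 and Col23a1, and the 2 were Col11a2 and Col20a1 (Col23a1 was named after its values were seen). DESeq2 called 10 higher and 3 lower, and limma voom 7 and 2. Library totals alone gave 12 higher and 1 lower. Over all 15274 genes DESeq2 called 2220 in either direction, limma voom 1079 and library totals alone 2611, against 1272 in the main edgeR fit. Col1a1, Col3a1, Col5a1 and Col5a2 kept their calls whichever lean or HFD control library was left out (highest adjusted p 0.0465). Leaving out lean 1 or lean 2 gave 4 higher members in place of 9, leaving out lean 3 or lean 4 gave 5, and leaving out HFD control 1, 2 or 3 gave 6, 7 and 4. Col1a2 and Col16a1 lost their calls without any lean library or HFD control 3 (highest adjusted p 0.0689 and 0.11), and Col6a1 without these or HFD control 1 (0.0873). Col6a3 lost it without lean 1, 2 or 3 or HFD control 1, 2 or 3 (0.0979), and Col6a2 kept it without HFD control 4 alone (0.133). Without HFD control 3, Col1a1 was at 2.99, Col1a2 at 2.11 (adjusted p = 0.0689), Col3a1 at 3.02 and Col6a1 at 1.85 (adjusted p = 0.0873). Without both lean 3 and HFD control 3, 0 members were called higher by edgeR and 1 lower (Col15a1), when 480 genes of 15416 passed against 1272 of 15274. In that fit the fibrillar changes were 3.10 for Col1a1 (adjusted p = 0.0906), 2.25 for Col1a2 (0.116), 3.06 for Col3a1 (0.0547), 1.69 for Col5a1 (0.0857) and 2.13 for Col5a2 (0.0744). The others were 2.04 for Col6a1 (adjusted p = 0.124), 2.22 for Col6a2 (0.191), 1.75 for Col6a3 (0.184) and 0.93 for Col16a1 (0.152). The 3 members that fell were called less steadily over the 8 fits that each omit a lean or HFD control library: Col6a6 in 1 (lost at an adjusted p up to 0.1), Col11a2 in 2 (0.0974) and Col20a1 in 5 (0.0624, lost without lean 2, lean 4 or HFD control 1).

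**Figure D2:**
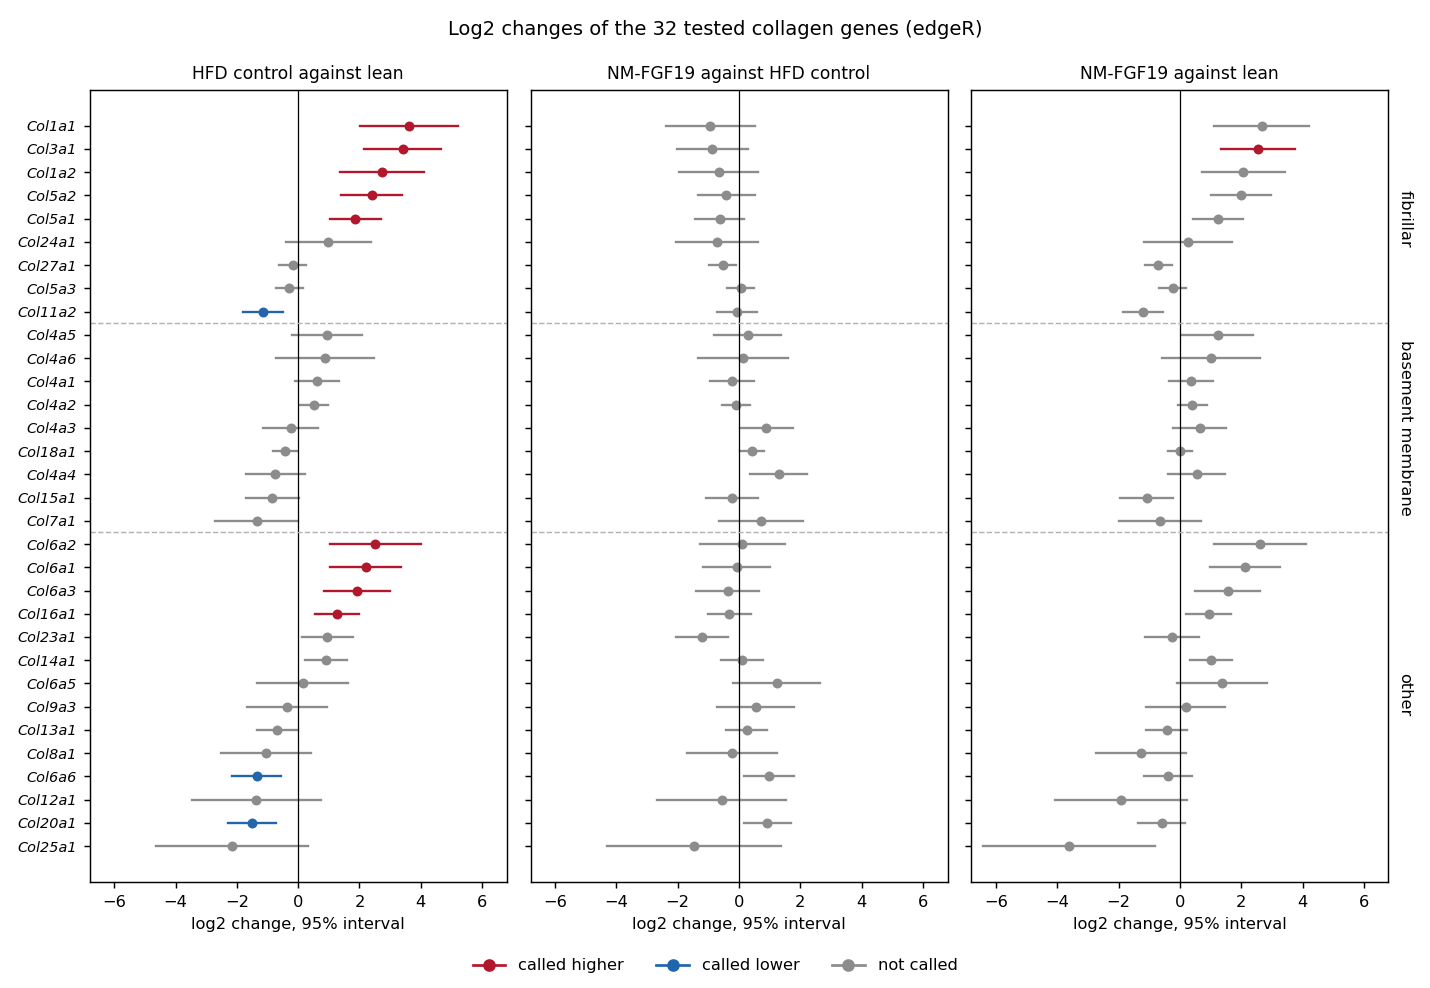
Log2 changes of the 32 tested collagen genes in the 3 comparisons (points) with 95% intervals (lines), from the edgeR fit, grouped by type and ordered by the first comparison. Red marks the 9 genes called higher and blue the 3 called lower for HFD control against lean, the middle panel holds no called gene, and in the right panel Col3a1 alone is red.

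NM-FGF19 against HFD control compares NM-FGF19 mRNA with the control mRNA on the same diet. An effect of that control mRNA, whose libraries carry the name of mouse OX40L, cannot be told apart from one of NM-FGF19 mRNA. No collagen gene was called. Col1a1, Col1a2, Col3a1, Col5a1 and Col5a2 averaged lower in NM-FGF19 livers, but the 2 groups overlapped for each of these genes. The HFD control libraries are those of the first comparison, so the 2 comparisons are not independent. Col18a1 and the minor type IV chains Col4a3 and Col4a4 averaged higher. By edgeR 0 of 32 members passed in either direction, where 0.282% of all genes were called higher and 0.151% lower. At an unadjusted p under 0.05 by edgeR, 5 members were higher and 2 lower, where 726 and 641 of all 15274 genes were. DESeq2 and limma voom also called 0 members. The 0 held in all 22 alternative settings. In simulated data of this comparison with 15026 genes, the test called 54% of genes changed 2-fold and 6% of genes changed 1.5-fold. Those genes were drawn at random from tested genes, not from the collagen genes. The rates therefore need not hold for members below 1 CPM, or for members whose replicates spread widely, such as the type I, III and VI genes.

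Of the 9 fibrillar genes tested, 8 had a log2 change below 0, with a median of −0.63 beside 0.00 for all genes. Col1a1 read 46.4, 21.2, 19.3 and 138 CPM in NM-FGF19 livers. NM-FGF19 1, 2 and 3 lay below every HFD control value, while NM-FGF19 4 exceeded 3 of the 4. The log2 change was −0.94 ± 0.66 (95% interval −2.38 to 0.51, adjusted p = 0.752), an interval that holds both a fall beyond 4-fold and a rise. It was −1.89 without NM-FGF19 4 and −0.31 without HFD control 3. Col1a2 read 56.3, 20.2, 19.1 and 114 CPM (−0.67 ± 0.59, 95% interval −1.95 to 0.62, adjusted p = 0.822).

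Col3a1 read 101, 53.6, 45.1 and 267 CPM, with NM-FGF19 1, 2 and 3 below all HFD control values (−0.87 ± 0.52, 95% interval −2.01 to 0.28, adjusted p = 0.699). Without NM-FGF19 4 it was at −1.68 and without HFD control 3 at −0.48. Col5a1 read 23.4, 9.66, 10.4 and 33.4 CPM (−0.63 ± 0.36, 95% interval −1.43 to 0.16) and Col5a2 read 13.7, 4.23, 8.46 and 21.8 CPM (−0.41 ± 0.42, 95% interval −1.33 to 0.51). In each of these genes NM-FGF19 1 and 4 were the higher values and NM-FGF19 2 and 3 the lower ones. Col27a1 had the lowest unadjusted p of the fibrillar genes (−0.53 ± 0.21, adjusted p = 0.438 by edgeR).

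Type VI chains were not called either. Col6a1 read 47.5, 19.5, 16.3 and 96.8 CPM (−0.07 ± 0.50, 95% interval −1.17 to 1.02), Col6a2 36.8, 13.1, 12.04 and 100.1 CPM (0.10 ± 0.63, −1.28 to 1.49) and Col6a3 40.6, 12.4, 13.95 and 52.1 CPM (−0.37 ± 0.47, −1.39 to 0.66). The intervals of Col6a1 and Col6a2 hold changes of 2-fold in either direction and that of Col6a3 a fall of 2-fold, and the NM-FGF19 values spanned a wider range than the HFD control values for all 3. The sign for Col6a2 turned with library totals alone (−0.02) and with limma voom (−0.26), and that for Col14a1 (main change 0.10) with library totals alone (−0.03). Col14a1 read 104, 59.9, 58.2 and 143 CPM and Col16a1 7.33, 3.93, 3.31 and 7.39 CPM, with Col16a1 at −0.32 ± 0.33. The 3 members that fell with the diet had differences of 0.98 ± 0.37 for Col6a6 (adjusted p = 0.434), 0.92 ± 0.36 for Col20a1 (adjusted p = 0.449) and −0.06 ± 0.31 for Col11a2. Col6a6 read 1.91, 1.85, 0.903 and 2.24 CPM and Col20a1 2.39, 2.31, 1.71 and 2.902 CPM in NM-FGF19 livers, and for Col20a1 these lay above all 4 HFD control values.

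Among basement membrane genes, Col4a1 read 114, 83.5, 92.3 and 151 CPM (−0.24 ± 0.33, 95% interval −0.96 to 0.48) and Col4a2 90.01, 66.2, 67.3 and 94.6 CPM (−0.10 ± 0.21, −0.56 to 0.36). Col18a1 read 1439.7, 1373, 1455 and 1081 CPM. The change from HFD control was 0.42 ± 0.18 (95% interval 0.03 to 0.81, adjusted p = 0.508), with HFD control 2 inside the NM-FGF19 range. Col15a1 read 10.3, 7.35, 5.69 and 6.199 CPM (−0.24 ± 0.39). Col4a3 and Col4a4, chains of the network known from kidney, were named after their values were seen. Col4a3 read 0.475, 0.551, 0.294 and 0.171 CPM in HFD control and 0.784, 0.731, 0.636 and 0.627 in NM-FGF19 livers (0.89 ± 0.40, adjusted p = 0.538). Col4a4 read 0.396, 0.406, 0.267 and 0.284 against 1.09, 0.616, 0.435 and 1.19 CPM (1.29 ± 0.43, adjusted p = 0.342). Both genes had 36 counts or fewer in every library. The groups did not overlap for 3 members in the higher direction (Col4a3, Col4a4 and Col20a1, where 3.23% of all genes did not) and 1 in the lower (Col23a1, where 2.38% did not). Col23a1, a transmembrane collagen gene, read 0.951, 0.638, 0.854 and 0.796 CPM in HFD control and 0.205, 0.462, 0.335 and 0.396 in NM-FGF19 livers (−1.21 ± 0.39, adjusted p = 0.3).

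NM-FGF19 against lean compares treated livers on the diet with livers on chow, and it shares its samples with the 2 comparisons above. Col3a1 was the 1 member called higher (2.54 ± 0.55, 95% interval 1.33 to 3.75, adjusted p = 0.0482), where 1.01% of all genes were. By edgeR 0 members were called lower, where 0.484% were. At an unadjusted p under 0.05 by edgeR, 11 members were higher and 4 lower, where 1399 and 1158 of all 15274 genes were. DESeq2 called 9 higher and 2 lower, and limma voom 0 in both directions. Over all 15274 genes DESeq2 called 969 in either direction and limma voom 112, against 228 by edgeR. Col1a1 was at 2.67 ± 0.70 (adjusted p = 0.0897), Col1a2 at 2.07 ± 0.61 (0.119), Col5a2 at 1.99 ± 0.45 (0.053), Col6a1 at 2.12 ± 0.53 (0.0721) and Col6a2 at 2.62 ± 0.68 (0.0877), none of them called. All 4 NM-FGF19 values of these 5 genes and of Col3a1 lay above every lean value. The groups did not overlap for 8 members in the higher direction (5.46% of all genes) and 4 in the lower (4.84%). The 4 were Col11a2, Col15a1, Col25a1 and Col27a1, and Col11a2 had the lowest adjusted p among them (−1.20 ± 0.31, 0.07). Col18a1 was at 0.00 ± 0.18 (95% interval −0.39 to 0.39). The Col3a1 call did not outlast leaving out lean 1, 2, 3 or 4, HFD control 1, 2 or 4 (which enter the shared spread), or NM-FGF19 1 or 4, with log2 changes of 1.73 to 2.62 and adjusted p up to 0.106. Without both lean 3 and HFD control 3 it was at 2.57 (adjusted p = 0.102), and the count was 0.

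Summed over the 11 fibrillar genes, CPM was 137, 168, 157 and 181 in lean, 515, 426, 894 and 329 in HFD control and 321, 164, 215 and 648 in NM-FGF19 livers. Every HFD control sum lay above the lean range, and NM-FGF19 2 lay inside it. The 8 basement membrane genes other than Col18a1 summed to 107 to 254 CPM in lean, 155 to 270 CPM in HFD control and 160 to 258 CPM in NM-FGF19 livers, with all 3 ranges overlapping. The 24 other genes summed to 84.4 to 159 CPM, 156 to 361 CPM and 119 to 423 CPM in the same order. Setting Col18a1 aside, fibrillar genes made up 27.5 to 42.3% of collagen CPM in lean, 48.0 to 58.6% in HFD control and 36.8 to 48.8% in NM-FGF19 livers. These sums weight long and abundant genes more than others.

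**Figure D3:**
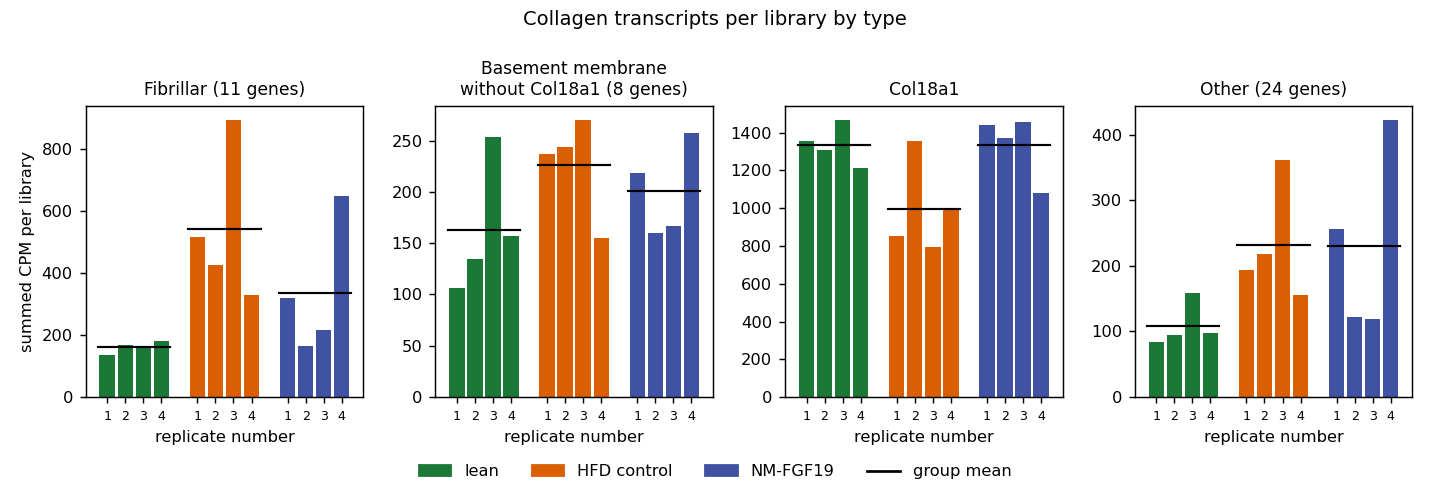
Summed CPM of collagen genes by type in each library (bars, replicates 1 to 4 in each group) with group means (lines), and Col18a1 on its own. The fibrillar panel shows all 4 HFD control bars above the lean bars and NM-FGF19 bars from 164 to 648, and the Col18a1 panel shows lower bars in 3 of 4 HFD control livers.

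Within each group the same livers tended to hold the extreme values. Of the 9 genes called higher with the diet, HFD control 3 held the highest HFD control value for 9 and HFD control 4 the lowest for 8. In lean livers, lean 1 held the lowest value for 8 of the 9. In NM-FGF19 livers, NM-FGF19 4 held the highest value for 9 of 9, and NM-FGF19 1 and 4 were both above 2 and 3 for all 9. Over all 32 tested members NM-FGF19 4 was highest for 23 and HFD control 3 for 17. Lean 3 was set apart by Col12a1, a fibril-associated collagen gene, at 1.096, 2.74, 43.95 and 2.798 CPM in lean livers, and by Col8a1, of the short-chain type VIII, at 0.685, 2.04, 8.16 and 1.57 CPM. Both genes were named after their values were seen, and neither was called for HFD control against lean.

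Within a library, the ratio of 2 chains does not depend on how libraries are scaled. The type I protein takes alpha-1 chains in excess of alpha-2. Count ratios are not corrected for exon length (6.563 kb for Col1a1 and 12.426 kb for Col1a2), so they do not give the proportion of chains. Per kilobase of exon, lean livers averaged 1.35 CPM for Col1a1 and 1.01 CPM for Col1a2. The count ratio of Col1a1 to Col1a2 was 0.434, 0.803, 0.673 and 0.880 in lean, 1.41, 1.21, 1.29 and 1.24 in HFD control and 0.825, 1.05, 1.01 and 1.21 in NM-FGF19 livers. All HFD control ratios lay above all lean ratios. The mean log2 ratio differed by 0.93 for HFD control against lean (exact permutation p = 0.0286, 2-sided, the smallest that 4 against 4 can give, and 0.171 after adjustment over 12 tests). For NM-FGF19 it differed by −0.34 from HFD control and by 0.59 from lean (exact permutation p = 0.0571 each, 0.171 adjusted). The ratio of Col3a1 to Col1a1 was 2.39 ± 0.466 in lean, 2.22 ± 0.486 in HFD control and 2.24 ± 0.247 in NM-FGF19 livers (mean ± SD, n = 4 each). The ratio of Col4a1 to Col4a2 was 1.35 ± 0.351, 1.53 ± 0.177 and 1.37 ± 0.156, with the highest value, 1.86, in lean 3. The ratio of Col6a1 to Col6a2 was 1.58 ± 0.160, 1.38 ± 0.412 and 1.27 ± 0.220. The 12 adjusted values ran from 0.171 to 0.914, and no ratio passed. With 4 against 4 livers, a ratio at the smallest possible p cannot pass after adjustment over 12 tests unless several others reach it too. The adjusted values therefore do not measure how far apart the Col1a1 to Col1a2 ratios lay.

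**Figure D4:**
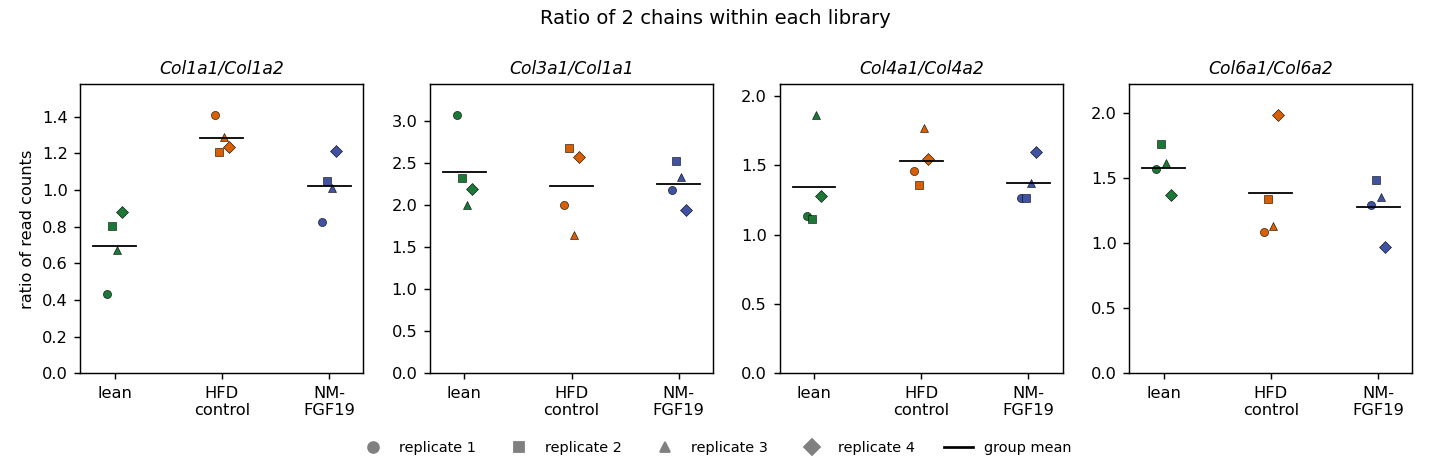
Ratio of read counts of 2 collagen chains within each library, for 4 pairs of genes. Symbols are libraries (shape gives the replicate number), lines are group means, and axes start at 0. The HFD control ratios of Col1a1 to Col1a2 (1.21 to 1.41) lie above the lean ones (0.434 to 0.880), and the groups overlap for the other 3 pairs.

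Genes that fold, process, bind and degrade collagen were counted from 6 lists, with 69 genes tested. For HFD control against lean 15 were called higher and 2 lower. DESeq2 called 24 and 5, limma voom 14 and 3, and without both lean 3 and HFD control 3 edgeR called 9 and 0. For NM-FGF19 against HFD control 0 passed in either direction by edgeR, with 3 higher and 4 lower at an unadjusted p under 0.05 (726 and 641 of all 15274 genes). DESeq2 called 3 higher and 0 lower there (285 of all 15274 genes in either direction), and limma voom 0. For NM-FGF19 against lean 3 were called higher (Itga1, Mmp2 and Thbs2) and 0 lower. The shares of all genes called by edgeR in each comparison, and the counts of all genes called by DESeq2, are as given above.

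Collagen chains are hydroxylated, folded and escorted in the endoplasmic reticulum, and 3 of 19 genes on that list rose and 1 fell with the diet. The collagen chaperone gene Serpinh1 read 7.57, 13.01, 12.8 and 26.2 CPM in lean and 76.1, 56.7, 60.5 and 34.8 in HFD control livers (1.94 ± 0.41, adjusted p = 0.0184). Fkbp10, a prolyl isomerase gene, and Crtap, part of the prolyl 3-hydroxylation complex, rose by 2.45 ± 0.48 and 1.18 ± 0.28 (adjusted p = 0.0119 and 0.0235). Ppib, which encodes cyclophilin B of the same complex, fell, from 103, 141, 104 and 115 CPM to 77.9, 84.1, 71.7 and 82.6 CPM (−0.55 ± 0.13, adjusted p = 0.0234). Its NM-FGF19 values of 129.8, 129, 101 and 117 CPM lay above all HFD control values (0.59 ± 0.13, adjusted p = 0.0812, not called). The median of the 19 genes was 0.23 for HFD control against lean and −0.08 for NM-FGF19 against HFD control. Leaving out lean 2 or HFD control 3 ended the Serpinh1 call (highest adjusted p 0.0514). Leaving out lean 2, lean 4, HFD control 1 or HFD control 3 ended those of Crtap and Ppib (highest 0.0693 and 0.0776), and leaving out lean 1 that of Crtap.

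Outside the cell, procollagen ends are cut off and fibres are crosslinked by lysyl oxidases, and 4 of 10 genes on that list rose and 1 fell. Loxl2 read 2.91, 3.34, 5.61 and 5.03 CPM in lean and 12.97, 10.5, 20.02 and 11.9 in HFD control livers (1.72 ± 0.35, adjusted p = 0.0134). Loxl1 and Loxl3 rose by 1.85 ± 0.39 and 1.16 ± 0.27 (adjusted p = 0.0155 and 0.0232), and the N-propeptidase gene Adamts2, named after its value was seen, 2.83-fold (adjusted p = 0.0332). Bmp1, for the C-propeptidase, fell, from 188, 163, 199.7 and 156 CPM to 97.8, 152, 76.9 and 100 CPM (−0.73 ± 0.18, adjusted p = 0.0281). Leaving out any lean or HFD control library but HFD control 2 ended the Bmp1 call (highest adjusted p 0.0889). Leaving out lean 2, HFD control 1 or HFD control 3 ended those of Loxl3 and Adamts2 (highest 0.0646 and 0.0941), and leaving out lean 1 or lean 4 that of Adamts2. Against HFD control, Loxl2 read 8.66, 4.04, 5.62 and 12.8 CPM in NM-FGF19 livers (−0.83 ± 0.34, adjusted p = 0.476). The median of the 10 genes was 0.64 for the diet and −0.33 for NM-FGF19 against HFD control.

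Of 10 fibril partners 2 rose with the diet. Sparc, a collagen-binding matrix protein gene, read 41.5, 59.05, 65.6 and 67.7 CPM in lean, 201, 156, 261 and 147 in HFD control and 117, 93.8, 86.99 and 235 in NM-FGF19 livers (1.71 ± 0.31 and −0.52 ± 0.30 for the first and second comparison, adjusted p = 0.0101 and 0.688). Thbs2, for thrombospondin 2, rose by 1.78 ± 0.37 (adjusted p = 0.0139) and was also higher in NM-FGF19 than in lean livers (1.81 ± 0.37, adjusted p = 0.0325). At an unadjusted p under 0.05 by edgeR, 9 of the 10 partners were higher with the diet and 1 was lower. Of all 15274 genes, 1989 were higher and 1763 lower at that threshold. The median of the 10 partners was 1.36. Of 9 collagen receptor and uptake genes, Mrc2 for the uptake receptor Endo180 rose by 2.01 ± 0.38 and the discoidin receptor gene Ddr2 by 0.73 ± 0.19 (adjusted p = 0.0103 and 0.0326). The Ddr2 call ended whichever lean or HFD control library was left out (highest adjusted p 0.075). Itga1, for the collagen-binding integrin alpha-1, read 57.3, 46.2, 51.4 and 55.9 CPM in NM-FGF19 livers, above all lean values of 38.1, 36.4, 33.6 and 30.6 CPM (0.60 ± 0.11, adjusted p = 0.0224) and all HFD control values of 34.6, 43.2, 41.4 and 38.5 CPM (0.42 ± 0.11, adjusted p = 0.183). That call ended without lean 2, 3 or 4 or NM-FGF19 1 or 4 (highest adjusted p 0.0754), and those of Mmp2 and Thbs2 against lean without any lean library or NM-FGF19 1 or 4 (highest 0.104 and 0.0871).

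Of 8 genes for collagenases and their inhibitors 3 rose with the diet. Mmp2, for gelatinase A, read 1.301, 1.95, 2.14 and 2.798 CPM in lean and 7.34, 7.16, 10.7 and 5.23 in HFD control livers (1.90 ± 0.39, adjusted p = 0.0132), and 8.22, 3.39, 4.35 and 11.7 in NM-FGF19 livers, where it was called against lean (1.76 ± 0.39, adjusted p = 0.0433). Mmp13, for the rodent interstitial collagenase, read 0.308, 0.186, 0 and 0.175 CPM in lean and 1.16, 0.696, 8.92 and 1.65 in HFD control livers (4.11 ± 0.91, adjusted p = 0.0196). Timp1, an inhibitor of these enzymes, read 0.0685, 0.186, 0.816 and 0.350 against 3.38, 1.33, 9.26 and 2.27 CPM (3.56 ± 0.84, adjusted p = 0.0244). HFD control 3 held the highest HFD control value of all 3. Without it the changes of Mmp13 and Timp1 were 2.71 and 2.76. Leaving out lean 2 or lean 4 ended both calls (highest adjusted p 0.0537 for Mmp13 and 0.0703 for Timp1), and leaving out HFD control 3 that of Timp1. On the TGF-beta list, the pathway best known for driving collagen synthesis, 1 of 13 genes was called higher (7.69%, near the 5.04% of all genes). It was Tgfb1 itself, from 14.9, 14.9, 17.1 and 19.1 to 33.8, 28.9, 37.7 and 26.1 CPM (0.94 ± 0.18, adjusted p = 0.0103). The median of the 13 genes was 0.06, with 7 changes above 0 and 6 below. Tgfb1, Fkbp10, Loxl1, Loxl2, Sparc, Thbs2, Mrc2 and Mmp2 kept their calls for HFD control against lean whichever library of these groups was left out.

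Markers of the cell types in liver were summed from 12 lists. Of 10 hepatic stellate cell markers, Des and Lrat were called higher with the diet, where 5.04% of all genes were. Leaving out 1 lean or HFD control library at a time, Lrat was called in 0 and Des in 2 of 8 fits (highest adjusted p 0.119 and 0.115). The summed level was 279 to 349 CPM in lean, 332 to 565 CPM in HFD control and 362 to 600 CPM in NM-FGF19 livers. The highest sums were 565 CPM in HFD control 3 and 600.2 CPM in NM-FGF19 4, the libraries with the highest fibrillar sums, and NM-FGF19 1 had 589.9 CPM. HFD control 3 and NM-FGF19 4 also held the highest sums of their groups for myofibroblast, portal fibroblast, vascular endothelial, cholangiocyte and adipocyte markers. Myofibroblast markers (1 of 5 tested called, Timp1) summed to 5.27 to 15.8, 12.2 to 29.3 and 8.53 to 26.8 CPM, and portal fibroblast markers (2 of 6 called, Fbln2 and Thy1) to 8.87 to 11.7, 16.6 to 30.0 and 11.9 to 25.4 CPM in the same order of groups. Smooth muscle markers (2 of 5, Des and Smtn) summed to 11.1 to 15.8, 23.0 to 28.2 and 14.4 to 28.9 CPM. In the same 8 fits Smtn was called in 8, Timp1 in 5, Fbln2 in 4 (highest adjusted p 0.0715) and Thy1 in 1 (0.125). The portal fibroblast and smooth muscle sums did not overlap between lean and HFD control livers, as the fibrillar sums did not. The hepatocyte sums, given below, did not overlap either and were lower in HFD control livers. Des is on both the stellate and the smooth muscle list. The part of these cell types in the collagen results was not tested.

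Sinusoidal endothelial markers (1 of 6 called higher, Fcgr2b) summed to 311 to 350 CPM in lean and 316 to 412 CPM in HFD control livers, and vascular endothelial markers (2 of 6, Pecam1 and Plvap) to 123 to 189 and 171 to 235 CPM. Of 6 macrophage markers Cd68, Gpnmb and Itgax were called higher and Clec4f lower, with sums of 283 to 356 and 149 to 379 CPM. Cholangiocyte markers (1 of 5 called lower, Sox9) summed to 53.9 to 279 and 32.9 to 127 CPM, with lean 3 at 279 CPM and the other lean livers at 53.9 to 110 CPM. Of these genes Gpnmb, Itgax and Clec4f were called in all 8 fits that leave out 1 lean or HFD control library. Cd68 and Plvap were called in 2 (highest adjusted p 0.0925 and 0.122), and Fcgr2b, Pecam1 and Sox9 in 1 (0.132, 0.11 and 0.129). Hepatocyte markers (0 of 6 called) summed to 70227 to 82916 CPM in lean, 41810.0 to 61556 CPM in HFD control and 75679 to 119038 CPM in NM-FGF19 livers. Mesothelial, lymphocyte and adipocyte markers (0 of 3, 0 of 5 and 1 of 2 tested called, Cfd higher) summed to at most 5.77, 5.54 and 152 CPM, and the adipocyte genes Adipoq, Plin1 and Lep read at most 0.102 CPM in every liver. Lean 3 held the highest lean adipocyte sum, 61.2 CPM, with the other lean livers at 1.53 to 3.73 CPM. For NM-FGF19 against HFD control 1 gene of the 12 marker lists was called, Cfd, which was lower (adjusted p = 0.0294, and called in 2 of the 8 fits that each omit a library of these groups, up to 0.125). For NM-FGF19 against lean, Reln of the stellate list and Gpnmb and Itgax of the macrophage list were called higher. Gpnmb and Itgax kept these calls in 8 of 8 fits without 1 lean or NM-FGF19 library, and Reln in 3, losing it without lean 1, 2 or 4 or NM-FGF19 1 or 4 (highest adjusted p 0.0741). The part of these cell types in the collagen results was not tested.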

How the data were processed

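Liver RNA from 12 mice was made into libraries with a stranded Illumina mRNA kit from 100 ng of total RNA and read as pairs of 101 nt, per the labels' protocols. The deposited table holds raw read counts per gene for 55359 genes, which the authors made with Trimmomatic, STAR and featureCounts on mm39, per the submitters' processing notes. For versions, annotation and strand mode: not given in the sources used here. Reads of overlapping genes may therefore be shared. All 12 columns were mapped by name, with 0 left over. Symbols matched 52083 Ensembl IDs, and the other 3276 held 0.515% of counts. Exon lengths for CPM per kb come from GENCODE vM21 (GRCm38).

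Counts were scaled by TMM, filtered with filterByExpr (minimum count 10), fitted with edgeR 4.0.16 in R 4.3.3 (robust quasi-likelihood, group as the only term, all 12 libraries, 2-sided) and adjusted by Benjamini-Hochberg over 15274 genes. The SE is the one implied by the F statistic. Chain ratios were tested by exact permutation (scipy 1.17.1). Alternatives were DESeq2 1.42.0, limma voom (limma 3.58.1), RLE size factors, library totals alone, 2 other filters, no robust option, only the groups compared, a replicate block and leaving out each library. Leaving out lean 3 and HFD control 3 together was added after seeing the data. Replicates differed by far more than counting error (chi-square per degree of freedom at least 38.8). Floors of 3 counts cover counting error only.

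The members, the 6 pathway and 12 marker lists and the tests were chosen with earlier results of these data known. Named members were those called in any comparison and a list of 13 (Col1a1, Col1a2, Col3a1, Col4a1, Col4a2, Col5a1, Col5a2, Col6a1, Col6a2, Col6a3, Col14a1, Col15a1 and Col18a1). The 3 most abundant of the rest were added, and per pathway list the 3 called genes with the smallest adjusted p in the main direction and 1 in the other. The edgeR step was run on simulated counts with known answers, drawn for NM-FGF19 against HFD control (15026 genes, 50 at each fold): it called 6, 54, 98 and 96% of genes changed 1.5-, 2-, 4- and 8-fold, and 4 of 14826 unchanged genes.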

Additional observations from a re-analysis of the deposited data

Results flagged for a closer look

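In 96 sets of 4 livers (32 tested members in 3 groups), 5 held a value whose gap to the nearest other, as a share of the whole range, exceeded Dixon's 95% critical value, on the log2 or the linear scale. It was 2 sets on the log2 scale and 4 on the linear one. Chance alone flags about 1 in 20 sets.

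Col1a1 in lean 1 was 4.25 CPM, with the other lean livers at 10.03 to 10.6 CPM, on both scales. Col20a1 in HFD control 3 was 0.400 CPM, with the others at 1.42 to 1.65 CPM, on the log2 scale. Col12a1 in lean 3 was 44.0 CPM against 1.10 to 2.80 CPM, Col6a1 in HFD control 3 was 78.1 CPM against 33.9 to 39.1 CPM and Col25a1 in HFD control 1 was 1.43 CPM against 0 to 0.0801 CPM, all on the linear scale. Without HFD control 3 the log2 change of Col20a1 for HFD control against lean was −1.23 and that of Col6a1 1.85.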

How the results depend on the processing

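Of 132 counts of called members recomputed under another setting, 94 stayed within 1.5 times the main count and 38 moved. Most of the 94 were counts of 0 that stayed 0, for NM-FGF19 against HFD control and for lower members of NM-FGF19 against lean. Where the main count was above 0, more counts moved than stayed. Of 1122 single-gene values, 973 kept their direction and side of the threshold, 96 lost the call, 23 gained one and 30 changed sign. The permutation test of a chain ratio cannot give a p under 0.05 with 1 library left out, so there only the direction could change. Of 108 chain ratios 97 were unchanged in direction and call and 11 changed sign. The causes were not tested. For HFD control against lean, 9 members were higher and 3 lower. Higher members numbered 5 with no filter on low counts (2 lower) and 0 without both lean 3 and HFD control 3 (1 lower). Lower members numbered 1 with library totals alone and 0 with only the 2 groups fitted. Leaving out 1 library gave 4 to 9 higher and 0 to 3 lower. For NM-FGF19 against lean, with 1 higher and 0 lower, DESeq2 gave 9 and 2 and library totals 3 higher. The filter of 1 CPM and the fit with no robust option gave 2 higher each. Limma voom, no filter, only the 2 groups and leaving out both libraries gave 0, and leaving out 1 library gave 0 to 2. For NM-FGF19 against HFD control the counts were 0 under every setting run. Replicate numbers did not pair the samples (correlations of deviations −0.363 to 0.0712). With them as a replicate block, higher and lower members numbered 4 and 1 for HFD control against lean, and 0 higher members were called for NM-FGF19 against lean.

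These values changed sign for NM-FGF19 against HFD control: Col14a1 (−0.0261) and Col6a2 (−0.0221) with library totals, Col6a2 with limma voom (−0.260) and the replicate block (−0.168), and Col15a1 (0.274), Col16a1 (0.0112) and Col6a1 (0.271) without both lean 3 and HFD control 3. Leaving out 1 library, Col11a2 ran from −0.204 to 0.0938, Col14a1 from −0.205 to 0.418, Col15a1 from −0.509 to 0.279, Col16a1 from −0.497 to 0.0159, Col6a1 from −0.772 to 0.276 and Col6a2 from −0.869 to 0.569. For NM-FGF19 against lean, Col18a1 was near 0 throughout: −0.000134 with DESeq2, −0.00549 with limma voom, −0.000137 with RLE, −0.000513 with only the 2 groups, −0.00399 with the replicate block and −0.0359 to 0.0912 leaving out 1 library. Among log2 ratios, leaving out 1 library moved Col3a1/Col1a1 between −0.213 and 0.0198 for HFD control against lean, −0.101 and 0.132 for NM-FGF19 against HFD control and −0.161 and 0.0442 for NM-FGF19 against lean. Col4a1/Col4a2 moved between −0.0278 and 0.219 for NM-FGF19 against lean, and Col6a1/Col6a2 between −0.195 and 0.0939 for NM-FGF19 against HFD control. Depth limits the members under about 1 CPM, where a library holds few reads.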

Other observations

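Tnfsf4, the gene for mouse OX40L, which names the HFD control columns, had 0 CPM in all 8 lean and HFD control livers and 0.0659 CPM, under 3 counts, in NM-FGF19 4. Col25a1, a transmembrane collagen gene known from neurons, read 3.97, 0.743, 1.63 and 0.656 CPM in lean, 1.43, 0.0580, 0.0801 and 0 in HFD control and 0.341, 0.192, 0 and 0.0330 in NM-FGF19 livers, and was not called in any comparison. Its change for NM-FGF19 against lean was −3.62 ± 1.29 (adjusted p = 0.178 by edgeR), with a 95% interval of −6.43 to −0.81.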
